A study of Mus musculus with 2 samples.

Results

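The potassium channel genes described here were chosen by symbol: the letters Kcn, further letters, a number and at most 1 letter after it. Of 40276 features in the tables, 93 matched. They comprised 30 voltage-gated pore subunits, 10 silent voltage-gated subunits, 8 pores opened by calcium, sodium or related signals, 15 inward rectifiers, 14 two-pore-domain leak channels and 16 auxiliary subunits. The study measured total RNA on tissue sections with random primers and an array of barcoded spots, a method named spRandom-seq. It held 1 section of normal mouse brain and 1 of normal mouse heart, each formalin-fixed, paraffin-embedded (FFPE) and 5 µm thick, with 1 library per tissue. For both sections the labels state that reverse transcription used a primer lacking the second cell barcode. Strain, sex and age are not stated in the labels. With 1 library per tissue there was no replicate check, so differences carry no p-value, and the intervals given (95%) cover the error of counting alone.

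Spots were taken as the barcodes that reached 500 counts and 200 features. The brain section had 4080 such spots and 37143546 counts in them, the heart section 3726 spots and 44613867 counts. A spot can hold several cells. All 4992 barcodes occurred in both libraries, and 3342 were kept in both. Counts were summed over kept spots and divided by the section's total, as CPM, counts scaled to a library of 1000000. Ribosomal, mitochondrial and small structured RNA took 38.2% of counts in brain and 59.6% in heart, so ratios between sections were also computed outside that RNA. The labelled tissues matched their markers: 6 neuronal markers summed to 3228 CPM in brain and 139 in heart, and 6 cardiomyocyte markers to 7.08 and 7891 CPM. None of the 12 was at 0 in either section. In both sections fewer cells of a type and less RNA per cell cannot be told apart.

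Potassium channels let potassium cross the membrane down its gradient, which sets the resting potential and ends action potentials. Voltage-gated members open on depolarisation, inward rectifiers pass current best near rest, and two-pore-domain members carry a steady leak. Neurons use many of them to shape spike width, firing rate and dendritic signals. Heart muscle uses a smaller set, known by its currents, to time repolarisation. A pore is lined by a short stretch of each subunit, the selectivity filter, which strips water from potassium ions.

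The pore-forming members shared this filter although their levels differed between the sections. The pairs below are shown because the first gene of each had a higher CPM in brain and the second in heart, Kcna5 at under 20 CPM. Each line is a 45-base coding window, with 5 codons of filter signature in capitals and 5 codons on each side, read from GENCODE mouse release 21 transcripts (GRCm38, coding strand).
Kcna2: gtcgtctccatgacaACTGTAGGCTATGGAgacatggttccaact
Kcna5: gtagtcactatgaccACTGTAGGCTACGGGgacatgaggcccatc
Kcnj9: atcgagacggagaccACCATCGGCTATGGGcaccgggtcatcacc
Kcnj5: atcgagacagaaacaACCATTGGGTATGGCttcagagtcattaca
Kcnk9 first filter: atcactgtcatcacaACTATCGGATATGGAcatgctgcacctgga
Kcnk3 first filter: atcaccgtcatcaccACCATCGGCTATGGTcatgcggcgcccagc
Kcnk9 second filter: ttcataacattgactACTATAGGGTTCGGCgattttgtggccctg
Kcnk3 second filter: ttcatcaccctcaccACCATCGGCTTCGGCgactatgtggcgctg
The Kcna2 window lies in coding exon sequence at chr3:107105209-107105253 on the plus strand, and that of Kcna5 at chr6:126533730-126533774 on the minus strand. Those of Kcnj9, at chr1:172326169-172326213, and Kcnj5, at chr9:32322544-32322588, are each within 1 exon on the minus strand. The first filters of Kcnk9 and Kcnk3 are each split by an intron, within chr15:72513022-72546018 and chr5:30588578-30621913. Their second filters lie within 1 exon, at chr15:72512704-72512748 and chr5:30622187-30622231.

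Kcna2 and Kcna5 had 33 of 45 bases and 13 of the 15 capital bases in common, and Kcnj9 and Kcnj5 33 and 12. Kcnk9 and Kcnk3 shared 35 bases at the first filter and 34 at the second, with 12 of 15 capitals each time. The signature searched was threonine or serine, then valine, isoleucine or leucine, glycine, tyrosine, phenylalanine or leucine, and glycine. All 77 pore-forming and silent members held it at least once in their longest coding sequence. Of the 14 two-pore-domain members, 12 held it 2 times and 2 held it once.

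Potassium channel genes took a larger share of brain than of heart counts. Their 418650 counts made up 1.13% (1.12 to 1.13) of the brain section and their 134853 counts 0.302% (0.301 to 0.304) of the heart section, a ratio of 3.73 (3.71 to 3.75). Outside ribosomal, mitochondrial and small structured RNA the shares were 1.82% and 0.748%. All 93 members had counts in both sections, and 44 reached 20 CPM in at least 1 of them, 40 in brain and 27 in heart.

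A member was called higher in a section when its CPM there was at least 20 and at least 4-fold that of the other section. By this rule 26 of the 44 members (59.1%) were higher in brain, against 17.2% of all 6345 features with 20 CPM in either section. In heart 5 (11.4%) were higher, against 5.41% of all features. The 61 members with a mean of at least 5 CPM had a median log2 ratio of brain over heart of 2.06, beside 0.43 for all 11925 such features. Outside ribosomal, mitochondrial and small structured RNA these medians were 1.45 and -0.19, so that scaling moved every log2 ratio toward heart by the same step.

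**Figure D1:**
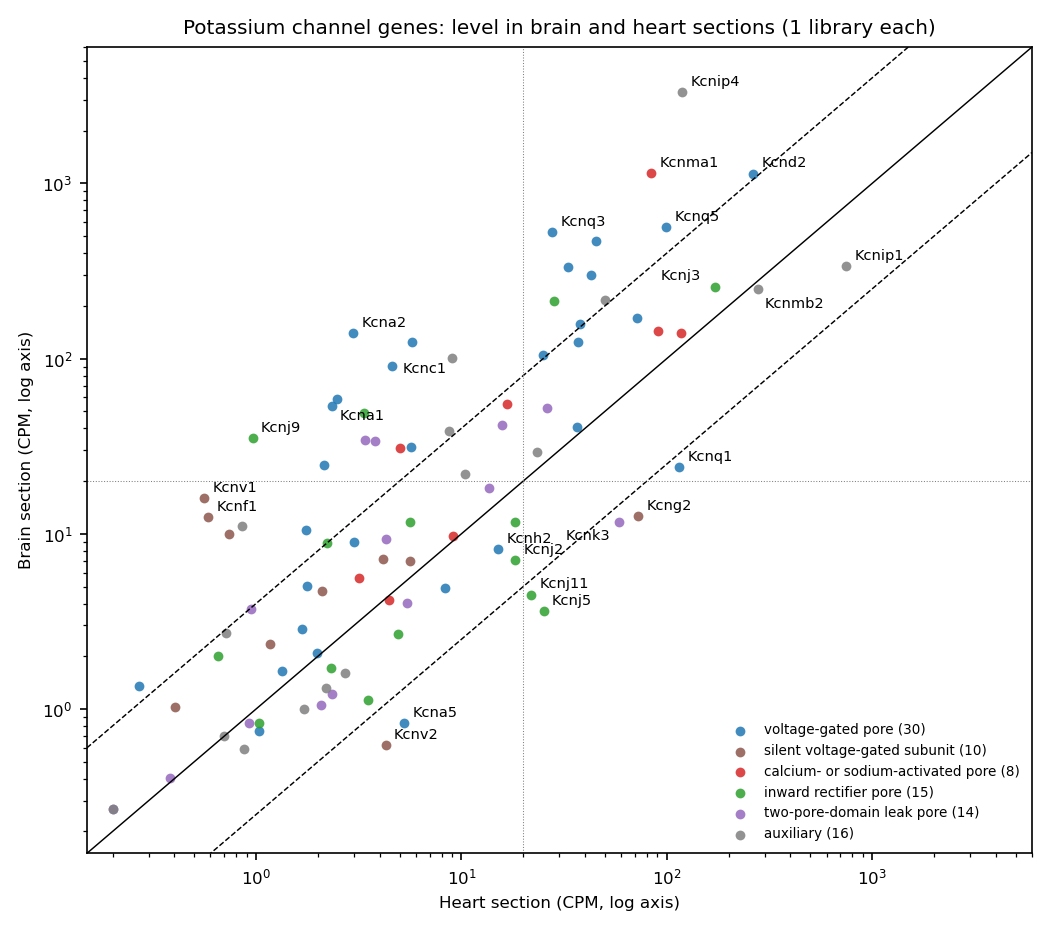
Level of each of the 93 members in heart (horizontal axis, CPM) and brain (vertical axis, CPM), both on log axes, with 1 point per gene coloured by role. The solid line marks equal levels, dashed lines 4-fold differences and dotted lines 20 CPM. Most points above 20 CPM lie above the solid line, with Kcnj5, Kcng2, Kcnk3, Kcnj11 and Kcnq1 below the lower dashed line.

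Among voltage-gated pore subunits 15 of the 19 with 20 CPM in a section were higher in brain and 1, Kcnq1, in heart. The Kv1 family carries low-threshold currents along axons. All 4 of its members that reached 20 CPM were higher in brain. Kcna2, found beside the nodes of myelinated axons, had 139 CPM in brain and 2.96 in heart, a ratio of 47.1 (39.6 to 56.4), which was the largest of the 44. Kcna1, its usual partner subunit, had 53.8 and 2.33 CPM, a ratio of 23.1 (18.9 to 28.4). The rapidly inactivating Kcna4 was 11.5-fold and Kcna6 5.52-fold higher in brain, the latter 3.61-fold outside ribosomal, mitochondrial and small structured RNA. Kcna5, whose product carries an ultrarapid current in atrial muscle, went the other way below the floor of the rule. It had 0.835 CPM in brain and 5.25 in heart, 6.28-fold (4.31 to 9.46) higher in heart from 31 and 234 counts.

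The Kv3 genes encode channels that let neurons fire fast. Kcnc1 had 90.3 CPM in brain and 4.59 in heart (19.6-fold), and Kcnc2 333 and 32.9 (10.1-fold), both higher in brain. The Kv2 genes give the main delayed rectifier of many neurons. Kcnb2 was 7.07-fold higher in brain at 301 CPM.

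Kv4 channels give the A-type current of dendrites and, in heart muscle, the transient outward current. Kcnd2 had 1136 CPM in brain and 263 in heart, a ratio of 4.31 (4.22 to 4.40). It lost the call outside ribosomal, mitochondrial and small structured RNA, at 2.82-fold, and when every spot weighed the same. Kcnd3 had 170.0 and 72.0 CPM, and its ratio of 2.36 did not reach the rule. Kcnd1 stayed at 2.88 and 1.68 CPM.

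The Kv7 family divided by member. Kcnq3 and Kcnq5, which contribute to the muscarine-sensitive M-current that restrains repetitive firing, were higher in brain. Kcnq3 had 526 CPM in brain and 27.7 in heart, a ratio of 19.0 (17.9 to 20.1). Kcnq5 had 562 and 99.3 CPM, 5.65-fold, and 3.70-fold outside ribosomal, mitochondrial and small structured RNA, where it was no longer called. Kcnq1, the pore of the slow delayed rectifier of heart, had 24.0 CPM in brain and 115 in heart, 4.79-fold (4.46 to 5.15) higher in heart. Its span overlaps the long RNA Kcnq1ot1 on the other strand, and whether strand was used in counting is not given in the sources used here, so reads of the overlap cannot be assigned to either.

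In the EAG, ERG and ELK families 3 of 4 members with 20 CPM were higher in brain. Kcnh7, an ERG channel gene of the nervous system, had 467 CPM in brain and 45.3 in heart (10.3-fold). Kcnh1 and Kcnh5, both EAG genes, were 4.17-fold and 4.22-fold higher in brain and lost the call outside ribosomal, mitochondrial and small structured RNA, at 2.73 and 2.76, and also with every spot weighing the same. Kcnh8 had 40.5 and 36.5 CPM, a ratio of 1.11 that turned to 1.38-fold higher in heart outside that RNA. Kcnh2, the pore of the rapid delayed rectifier of heart, had 8.18 CPM in brain and 15.1 in heart, 1.84-fold (1.61 to 2.12) higher in heart.

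Silent subunits form no channel alone and alter Kv2 channels when they join them. Only Kcng2 of the 10 reached 20 CPM, and it was higher in heart, with 12.6 CPM in brain and 72.3 in heart, 5.73-fold (5.20 to 6.32). Under the floor, Kcnv1 had 15.9 and 0.56 CPM (28.4-fold, 19.0 to 44.2) and Kcnf1 12.4 and 0.583 (21.3-fold, 14.3 to 33.0), both more in brain. Kcns2 had 9.96 and 0.74 CPM. Kcnv2 leaned to heart, with 0.619 and 4.28 CPM from 23 and 191 counts.

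Of the calcium- and sodium-activated pores 2 of 5 with 20 CPM were higher in brain. Kcnma1, the BK channel opened by calcium and voltage together, had 1146 CPM in brain and 83.9 in heart, a ratio of 13.7 (13.2 to 14.1). The sodium-activated Kcnt1 had 30.9 and 5.00 CPM (6.18-fold), while its relative Kcnt2 had 144 and 90.8 (1.58-fold). The SK channels, which give the after-hyperpolarisation, were less unequal. Kcnn3 had 54.9 and 16.7 CPM, a ratio of 3.28. Kcnn2 had 5211 counts in each section, or 140.3 and 117 CPM, and its ratio of 1.20 became 1.27-fold higher in heart outside ribosomal, mitochondrial and small structured RNA.

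Inward rectifiers included calls in both directions, 3 in brain and 2 in heart among 6 with 20 CPM. Kcnj9 and Kcnj6, subunits of the neuronal channel opened by G proteins, had 35.2 and 212 CPM in brain against 0.964 and 28.3 in heart, 36.5-fold (27.0 to 50.7) and 7.51-fold. Kcnj10, the astrocyte channel that clears potassium, had 49.1 and 3.34 CPM (14.7-fold, 12.4 to 17.5). Kcnj5, the atrial partner of Kcnj3, had 3.61 CPM in brain and 25.1 in heart, 6.96-fold (5.81 to 8.39) higher in heart. Kcnj11, the pore of an ATP-sensitive channel, had 4.50 and 21.8 CPM (4.84-fold, 4.10 to 5.74). Kcnj3, which serves in both tissues, had 257 CPM in brain and 171 in heart, and its ratio of 1.51 fell to 0.984 outside ribosomal, mitochondrial and small structured RNA.

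The two-pore-domain genes were mostly low, with 5 of 14 at 20 CPM or more in a section. Kcnk9 and Kcnk3 encode acid-sensitive leak channels that can join in 1 channel, and their calls were opposite. Kcnk9 had 33.9 CPM in brain and 3.79 in heart, 8.95-fold (7.62 to 10.6) higher in brain. Kcnk3 had 11.7 and 58.7 CPM, 5.00-fold (4.52 to 5.55) higher in heart. Kcnk1 was 10.1-fold higher in brain at 34.2 CPM. The mechanically gated Kcnk2 and Kcnk10 had ratios of 1.99 and 2.64 and were not called.

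Of 8 auxiliary genes with 20 CPM 4 were higher in brain and none in heart. Kcnip4, a calcium-binding partner of Kv4 channels, had 3313 CPM in brain and 119 in heart, a ratio of 27.9 (27.1 to 28.7). Its span overlaps other annotated genes on both strands, and how reads of such overlaps were assigned is not known here. The spans of Kcnd2, Kcnq5, Kcnb2 and Kcnma1 also overlap annotated genes. Kcnab2 and Kcnab1, the cytoplasmic beta subunits of Kv1 channels, had ratios of 11.2 and 4.31, and Kcnip3 4.49. Kcnab1 and Kcnip3 were under 4-fold outside ribosomal, mitochondrial and small structured RNA, at 2.81 and 2.93, and Kcnab1 also lost its call with every spot weighing the same. Kcnip1 differed from its family: it had 337 CPM in brain and 745 in heart, 2.21-fold (2.16 to 2.25) higher in heart. Its span overlaps Kcnmb1, Gm12119 and Gm12120 on the other strand. Kcnip2, the Kv4 partner of the ventricle, had 29.2 and 23.3 CPM, and its ratio of 1.25 turned to heart outside ribosomal, mitochondrial and small structured RNA (1.22-fold) and with every spot weighing the same (1.04-fold). The BK partner Kcnmb2 had 249 and 279 CPM.

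**Figure D2:**
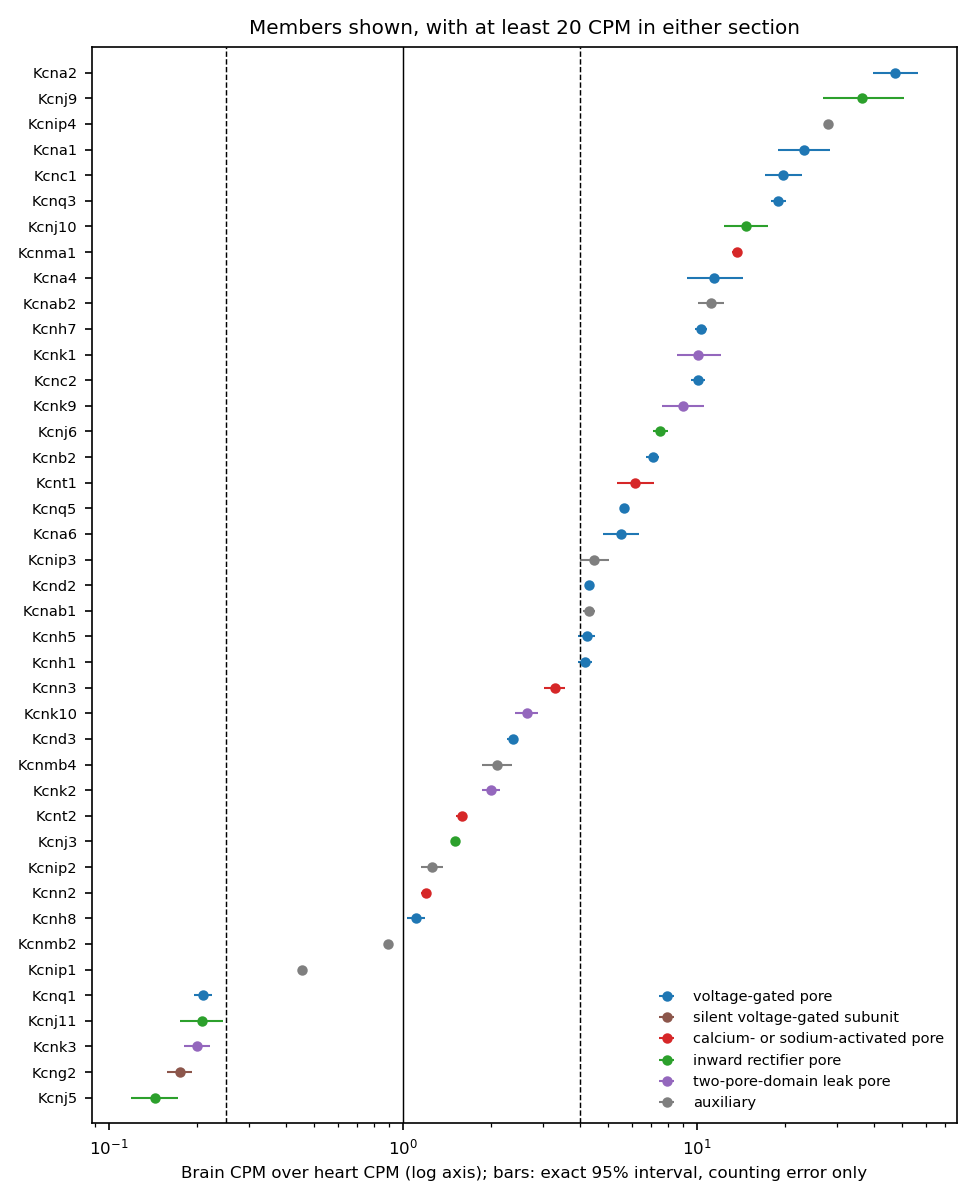
Brain CPM over heart CPM on a log axis for the 41 members shown of the 44 with at least 20 CPM in a section, in rising order, coloured by role, with exact 95% intervals for counting error as bars. Dashed lines mark 4-fold. The ratios run from 0.144 for Kcnj5 to 47.1 for Kcna2. Kcnj5, Kcng2, Kcnk3, Kcnj11 and Kcnq1 lie left of the left dashed line.

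Genes were also listed by the current they carry. The axonal Kv1 list with Kcnab2 and the dendritic A-type list, both neuronal, had every member higher in brain, 3 of 3 and 2 of 2. Over all features with 20 CPM in a section the share was 17.2%. Kcnd2 of the A-type list lost the call outside ribosomal, mitochondrial and small structured RNA (2.82-fold) and with every spot weighing the same. The neuronal G-protein-gated list had 2 of 3 higher in brain, Kcnj3 being the other. The astrocyte list had Kcnj10, while Kcnj16 had 11.6 CPM in brain and 5.63 in heart.

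The cardiac lists were less uniform. The slow delayed rectifier list had Kcnq1 higher in heart, while its beta subunit Kcne1 stayed at 1.62 CPM in brain and 2.71 in heart. The acetylcholine-gated list had Kcnj5 and not Kcnj3. The list for ATP-sensitive channels had Kcnj11, and Kcnj8 had 1.13 and 3.52 CPM. The transient outward list gave no gene higher in heart: Kcnd2 and Kcna4 were higher in brain and Kcnd3 and Kcnip2 not called. The inward rectifier list of resting heart muscle stayed under 20 CPM. Kcnj2 had 7.11 and 18.2 CPM (2.56-fold, 2.23 to 2.95, higher in heart), Kcnj12 11.7 and 18.2, and Kcnj4 8.91 and 2.22.

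Genes that work beside these channels were listed too. Of 18 partner genes 9 reached 20 CPM, of which 7 were higher in brain and 1 in heart. Abcc9, the sulfonylurea receptor of muscle that surrounds Kcnj11 and Kcnj8 pores, had 11.1 CPM in brain and 132 in heart. Abcc8, its relative in neurons and islet cells, had 22.7 and 15.6 CPM. Dpp10 and Dpp6, which help Kv4 channels to the surface, were 8.77-fold and 7.57-fold higher in brain, and Lgi1, Cntnap2, Cntn2 and Adam22, which surround axonal Kv1 channels, 11.3-fold, 6.42-fold, 5.03-fold and 4.0-fold. Hcn4, the pacemaker gene of the sinus node, had 9.07 and 6.59 CPM.

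Random primers can copy any part of a transcript, introns included, and how introns were counted is not given in the sources used here. Across the 93 members the Spearman correlation of CPM with gene span was 0.78 in brain and 0.88 in heart. The points share a library, so these values only describe. The 23 members with a span of at least 100 kb gave 88.6% of the members' counts in brain and 84.0% in heart, and Kcnip4 alone 29.4% in brain.

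Levels were compared between genes per kb of span. Counts per kb over 1502 olfactory and vomeronasal receptor genes, whose known place is the sensory lining of the nose, served as a yardstick. Kcna2 and Kcna1 had the highest densities in brain, 150 and 134 times that of the receptor genes. Kcnj9 stood at 59.4 and Kcna4 at 46.7 times. In heart Kcnj11 was highest at 36.9 times, then Kcnip1 at 23.6, Kcna5 at 21.2, Kcnj2 at 19.7 and Kcnk3 at 18.3 times. Several of these heart genes had low CPM and short spans, so the density put Kcna5 and Kcnj2 among the leading potassium channel genes of the heart section and CPM did not. Per kb of merged exons the order was different again, led in brain by Kcnip4 with 914 CPM per kb and Kcnd2 with 220.4, and in heart by Kcnip1 with 120.1 and Kcnmb2 with 89.2.

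At or under 2 times the receptor density lay 22 of 93 members in brain (23.7%), against 39% of 20290 other protein-coding genes, and 59 in heart (63.4%), against 48.2%. Several long genes with sizeable CPM in heart were near the yardstick there: Kcnip4 stood at 1.21 times, Kcnq3 and Kcnh7 both at 1.07, and Kcnma1 at 1.34. By merged exon length 10 members in brain and 20 in heart lay at or under 2 times. In brain, per kb of span, Kcnip4, Kcnq3, Kcnh7 and Kcnma1 stood at 43.4, 26.1, 14.2 and 23.5 times. Kcnd2 was above it in both sections, at 32.9 and 5.91 times. With the receptor density taken off, Kcnk10, Kcnk2 and Kcnn3 also passed the rule for brain.

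**Figure D3:**
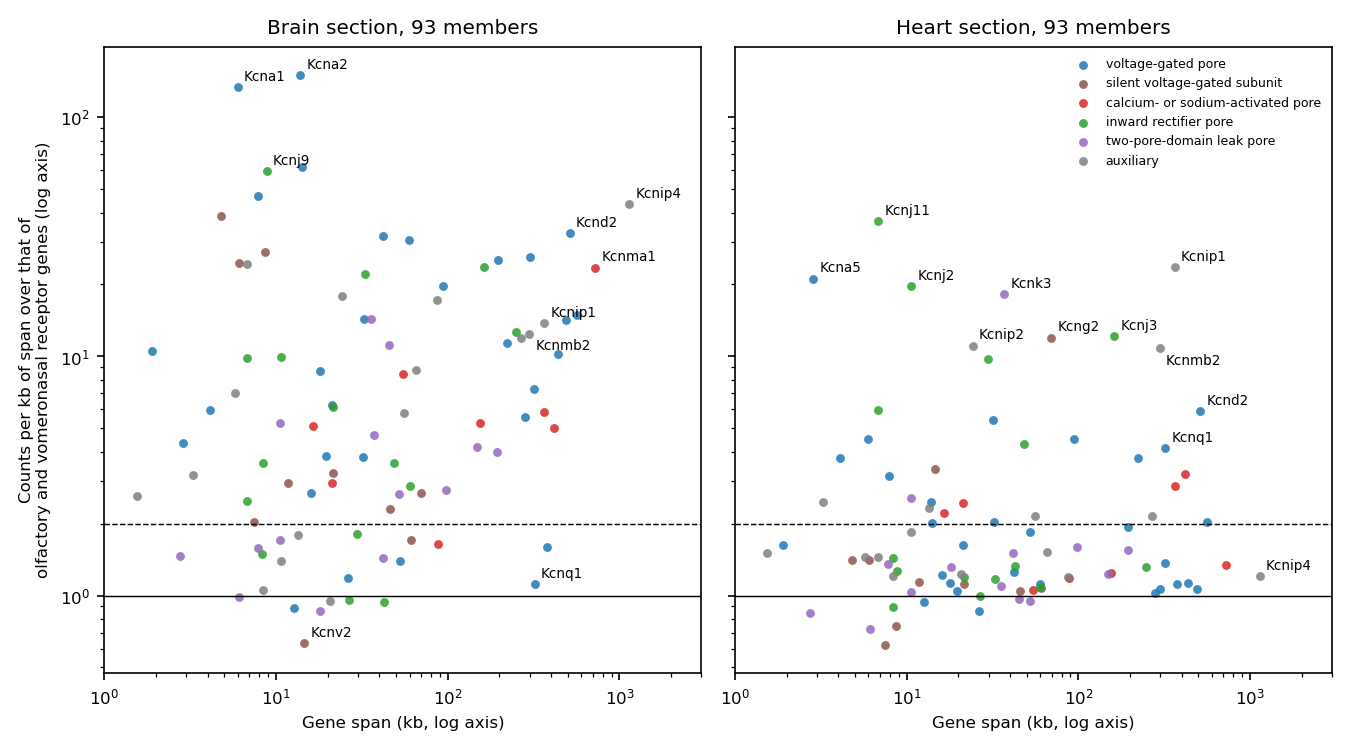
Counts per kb of gene span, as a multiple of that of the receptor genes (vertical log axis), against gene span in kb (horizontal log axis), for the 93 members in brain (left) and heart (right). The solid line marks the receptor density and the dashed line 2 times it. In brain 22 members lie at or under the dashed line and in heart 59, with Kcna2 highest at 150 times in brain and Kcnj11 at 36.9 times in heart.

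Spot by spot the members had more counts in brain than in heart. Spots with at least 2800 counts were thinned to that number, and 1020 shallower spots in brain and 787 in heart were left out. The 2800 counts include ribosomal, mitochondrial and small structured RNA, which took 38.2% of counts in brain and 59.6% in heart. The median brain spot held 28 member counts (quartiles 20 and 37, range 3 to 84, 3060 spots) from a median of 13 members. The median heart spot held 8 (quartiles 6 and 10, range 0 to 23, 2939 spots) from 6 members, and 4 heart spots held none. The members' share also moved with the depth of a spot. With spots of each section split into 4 equal groups by depth, it was, from the shallowest to the deepest, 0.817%, 0.903%, 1.06% and 1.21% in brain and 0.325%, 0.276%, 0.287% and 0.314% in heart. Olfactory and vomeronasal receptor genes had 1142, 877, 799.8 and 865 CPM in the brain groups and 1633, 1087, 1072 and 1110 in the heart groups, highest in the shallowest group of each section. Their part in the result was not tested.

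Spots of each section were grouped by expression without the potassium channel, partner and marker genes, so that the channels could be described across groups that they did not define. Groups are called regions and are known by number and leading genes, since spot positions were not used here. In brain, 10 regions held 49 to 1017 spots. The members' share of counts ran from 0.582% in region 5 (Ptgds, Slc6a20a, Col1a2) to 1.45% in region 4 (Prkcd, Shox2, Synpo2). A member was called higher in a region at 2-fold or more over the rest of the section with at least 20 CPM in the region. Of 51 members with 20 CPM in a region 39 passed (76.5%), against 38.7% of all 8184 such features. Ribosomal, mitochondrial and small structured RNA took 26.1% of counts in region 9 and 37.7% to 41.0% in the others. Outside that RNA 48 members passed, of which 38 were among the 39. Over all features 104, 116, 175, 297, 1101, 490, 258, 223, 539 and 599 passed in regions 1 to 10.

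The largest folds belonged to region 10, whose 49 spots were led by Ttr, Sostdc1 and Enpp2 and in which the 5 choroid plexus markers summed to 3867 CPM, against at most 220.4 in any other region. Kcne2, an auxiliary subunit known from choroid plexus and stomach epithelium, had 46.7 CPM there and 0.952 in the rest of the section, 49.1-fold (32.0 to 76.5, 67 counts in the region). Kcnj13, an inward rectifier of transporting epithelia, had 26.5 and 1.04 CPM, 25.6-fold (15.8 to 41.4, 38 counts). Both were under 3 CPM over the whole brain section and so did not enter the comparison with heart. Kcnma1 had 6274 CPM in region 10 and 940.1 in the rest, 6.67-fold (6.52 to 6.83). Kcnh8 was 4.0-fold, Kcnip1 2.40-fold and Kcnd2 2.32-fold higher there, while Kcna1 had 7.67 CPM and Kcnq3 84.4, each the lowest of the 10 regions.

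Region 4, with 652 spots led by Prkcd and Shox2 and 3793 CPM over 4 thalamus markers, held the most members past the rule. These were 11 of 38 with 20 CPM there, beside 297 of 5284 features. Kcnc2 had 1096 CPM there and 206 in the rest, 5.32-fold (5.14 to 5.51). The other fast-spiking gene Kcnc1 was 2.39-fold higher, and the axonal Kcna2 2.82-fold at 312 CPM. Kcnj12 was 3.76-fold, Kcna4 3.13-fold, Kcnn3 2.95-fold and Kcnj9 2.85-fold higher. Kcnip4 reached 6152 CPM, 2.16-fold over the rest. Kcnj10 and Kcnf1 passed there too. In the same region Kcnh1 had 30.9 CPM and Kcnip2 2.27, each the lowest of the 10 regions.

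Region 1, the largest with 1017 spots and led by Pdzrn3, Mef2c and Dpp10, had 6 members past the rule. They were of 41 with 20 CPM there, beside 104 of 5323 features. Kcnv1 had 34.2 CPM there and 6.88 in the rest, 4.97-fold (4.15 to 5.97). Kcnh7 was 2.66-fold higher at 803 CPM, Kcnf1 2.38-fold, Kcnq5 2.14-fold and Kcnh1 2.02-fold. Kcnv1 and Kcnf1 are silent subunits, and Kcnf1 also passed in region 4.

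Region 7, with 149 spots with Penk and Drd2 among its leading genes, had 7 of 38, beside 258 of 5194 features. Kcnj2 had 30.8 CPM there and 6.38 in the rest (4.83-fold, 3.27 to 6.95), from 34 counts in the region. Kcnab1 was 3.50-fold higher at 704 CPM and Kcnip2 3.17-fold at 87.0. Kcnq5, at 1204 CPM, was 2.22-fold higher, and Kcnk13, Kcnk2 and Kcna4 also passed.

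In region 9, with 61 spots led by Dsp, Maml2 and Prox1, the silent subunit Kcng2 had 70.3 CPM against 7.56 in the rest, 9.30-fold (7.72 to 11.2). The G-protein-gated pair Kcnj6 and Kcnj3 were 3.35-fold and 2.48-fold higher, at 598 and 569.5 CPM. Kcnip2 was 3.54-fold higher, and Kcnc4, Kcnk1 and Kcnt2 passed at 2.38-fold to 2.72-fold. Region 8 (4921539H07Rik, Neurod6, Ctxnd1) had Kcnip2, Kcnab2 and Kcnab1 at 2.26-fold, 2.11-fold and 2.00-fold.

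Region 6, led by the myelin genes Mobp and Cldn11, had 2 members past the rule. Kcnj10, which also passed in region 4, had 140.4 CPM in region 6 and 46.6 in the rest, 3.01-fold (2.51 to 3.59). Kcna6 had 63.6 and 30.4 CPM, 2.09-fold. Region 5 had Kcnk5 at 37.9 CPM against 2.56, 14.8-fold (10.5 to 20.9, 58 counts), with Kcnj2, Kcnk2 and Kcnq1 at 3.21-fold, 3.07-fold and 2.61-fold. Receptor genes were 2.26-fold higher in region 5 as well. With their density taken off, Kcnk5 and Kcnk2 still passed there and Kcnj2 and Kcnq1 did not. Members past the rule were 4 of 37 with 20 CPM in region 5, beside 1101 of 6290 features. For region 6 they were 2 of 36, beside 490 of 5728 features. Both shares were below those of all features. In regions 2 and 3 no member passed, beside 116 of 5710 and 175 of 5655 features. Region 2 was made of shallow spots, with a median of 1245 counts against 5981 over the brain section.

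The 12 members that passed in no brain region included Kcnmb2, which ran only from 189 to 307 CPM over the 10 regions, and Kcnn2, from 97.0 to 189.9. Kcnq3, Kcnb2, Kcnd3, Kcna1, Kcnip3, Kcnj16, Kcnk9, Kcnk10 and Kcnt1 were also among them, and their highest region had 2.66 to 13.0 times the level of their lowest.

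**Figure D4:**
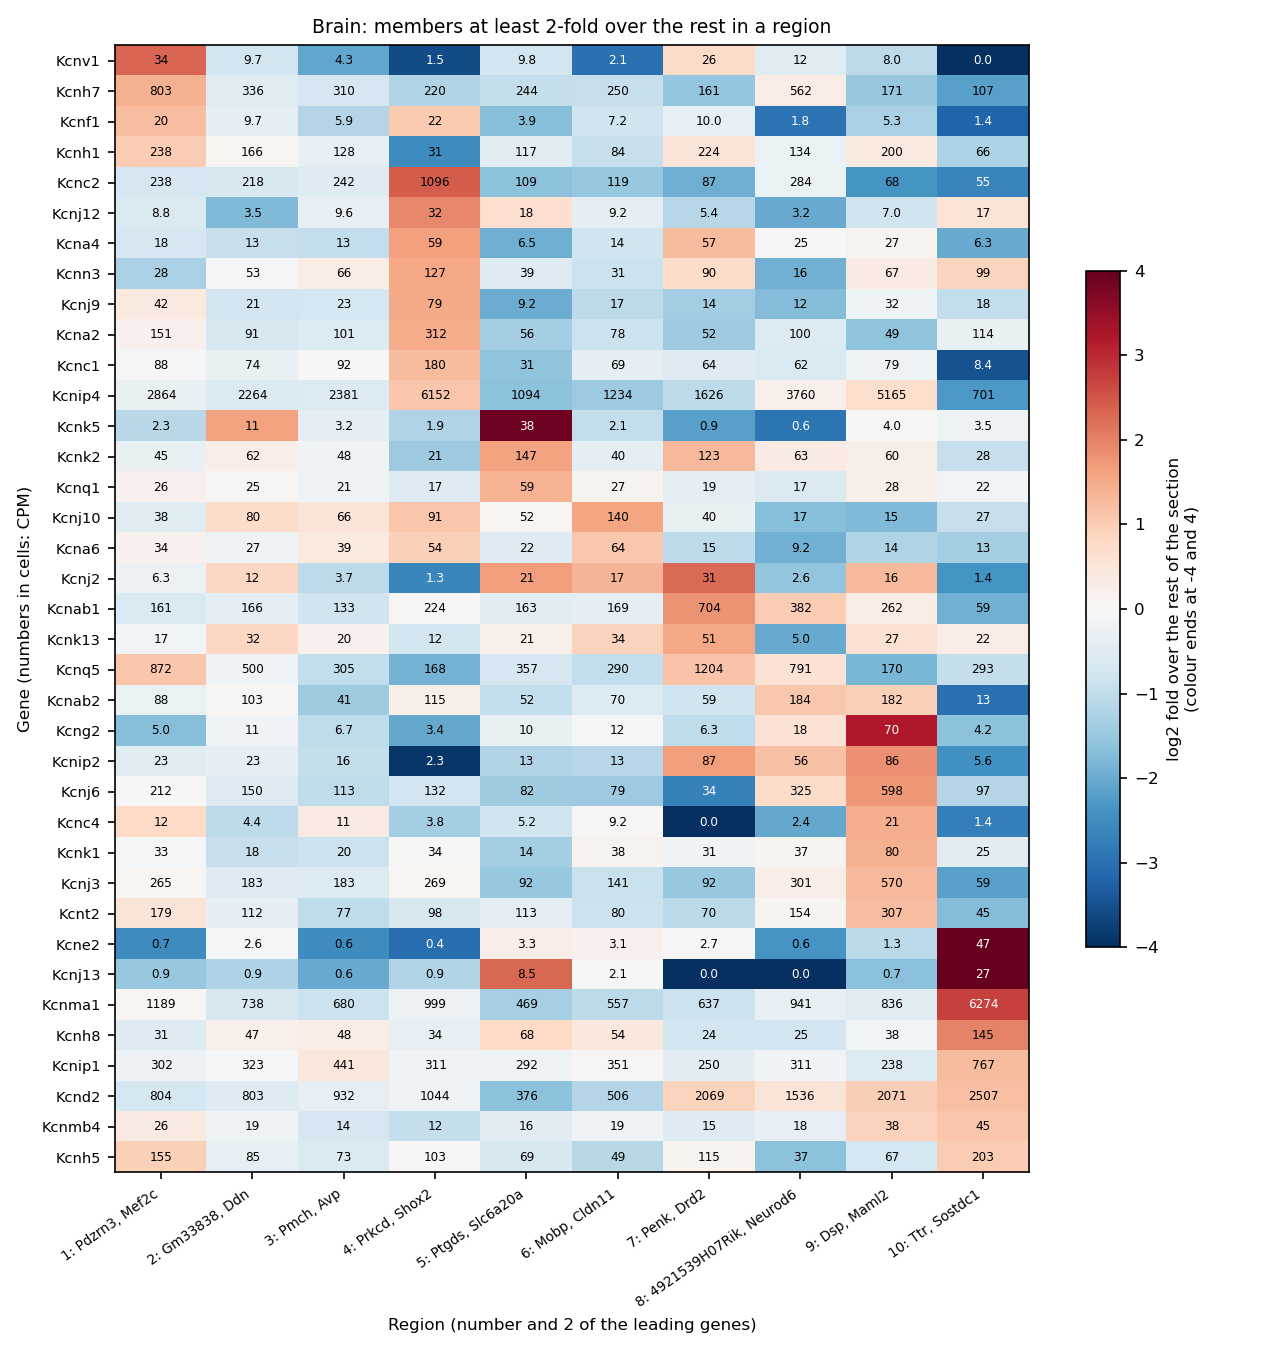
Members that passed the region rule in brain (37 of the 39 shown as rows, ordered by the region of their largest fold) across the 10 regions (columns, number and 2 of the leading genes). Colour is the log2 fold of CPM over the rest of the section and ends at -4 and 4, and the number in a cell is CPM. Kcne2 and Kcnj13 stand out in region 10, Kcnk5 in region 5, Kcng2 in region 9 and Kcnc2 in region 4.

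In heart, 5 regions held 339 to 1191 spots, and the members' share of counts ran from 0.244% in region 1 to 0.391% in region 5. Ribosomal, mitochondrial and small structured RNA took 67.8%, 61.4%, 56.9%, 53.7% and 51.6% of counts in regions 1 to 5. The members' share was thus lowest in region 1, where that RNA was highest, and highest in region 5, where it was lowest. Shares outside that RNA were not computed by region, so the range describes shares of all counts only. Of 36 members with 20 CPM in a region 19 passed the region rule (52.8%), against 33.1% of all 6555 features. At a finer grouping of spots (resolution 1.0 in place of 0.6) 29 passed. Outside ribosomal, mitochondrial and small structured RNA 22 passed, of which only 12 were among the 19. All but 1 of the 19 passed in region 5, whose 339 spots were led by the haemoglobin genes Hbb-bs, Hbb-bt and Hba-a1. The 5 erythrocyte markers summed to 7289 CPM there, against at most 314.5 elsewhere. Calls over all features lay mostly there too, 2039 features in region 5 against 16, 0, 58 and 109 in regions 1 to 4. Kcnh7 had 139.8 CPM there and 39.8 in the rest, 3.51-fold (3.12 to 3.95), and Kcnu1, Kcnh5 and Kcnk10 were 3.37-fold, 3.23-fold and 3.22-fold higher. Receptor genes were 2.72-fold higher in region 5, and 6 neuronal markers summed to 353 CPM there against 85.2 to 180.0 in the other regions. With the receptor density taken off, 5 members passed in heart, Kcnh7 and Kcnj6 in region 5 and Kcnma1, Kcnt2 and Kcnc2 in region 4.

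Region 4 of heart, with 547 spots led by Nppa and Fgf12 and 293 CPM over 4 atrial markers, had 3 members past the rule. They were of 27 with 20 CPM there, beside 109 of 5040 features. Igfbp5 and Dcn were also among the leading genes of region 4. Its 5 fibroblast markers summed to 364 CPM, against 138 to 253 in the other regions, and receptor genes were 1.55-fold higher there. Kcnt2 had 146 CPM there and 66.0 in the rest (2.21-fold, 2.07 to 2.35) and Kcnma1 131 and 62.6 (2.10-fold, 1.97 to 2.24). Kcnn3 was 2.02-fold higher. These folds are on CPM that includes ribosomal, mitochondrial and small structured RNA. That RNA took 53.7% of counts in region 4, against 67.8% in region 1, 61.4% in region 2 and 59.6% over the section. The 3 folds, all near 2, would therefore be lower outside it. Of the 19 members that passed in heart, only 12 also passed outside that RNA. The atrial pair Kcnj3 and Kcnj5 had their highest CPM in region 4 without reaching 2-fold: Kcnj3 had 90, 157, 237, 249 and 84.1 CPM in regions 1 to 5 and Kcnj5 16.2, 22.7, 14.6, 35.9 and 18. For Kcnj3 the intervals of region 3 (207 to 270) and region 4 (241 to 258) overlapped, while Kcnj5 was lowest in region 3. Spots of region 3 were shallow, with a median of 958 counts.

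Of the 5 members called higher in heart than in brain, 3 had their lowest level in region 5. Kcnk3 had 31.2 CPM there and 52.9 to 64.8 in the other regions, Kcnj11 10.7 and 18.8 to 24.8, and Kcng2 41.0 and 57.1 to 82.3. The 6 cardiomyocyte markers were also lowest there, with 2703 CPM against 6925 to 9158 elsewhere. Kcnq1 had 122 CPM in region 5 and 84.6 to 135 elsewhere, and with the receptor density taken off 52.7 and 68.5 to 98.5, so it too was then lowest in region 5. Kcnip1 ran from 656 to 860.0 CPM over the 5 regions and Kcnmb2 from 264 to 336. On this scale of all counts both were nearly level over heart, as Kcnmb2 was over brain. Ribosomal, mitochondrial and small structured RNA took 67.8% of counts in region 1 and 51.6% in region 5. Outside that RNA both would be less level, with their highest values in region 1.

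**Figure D5:**
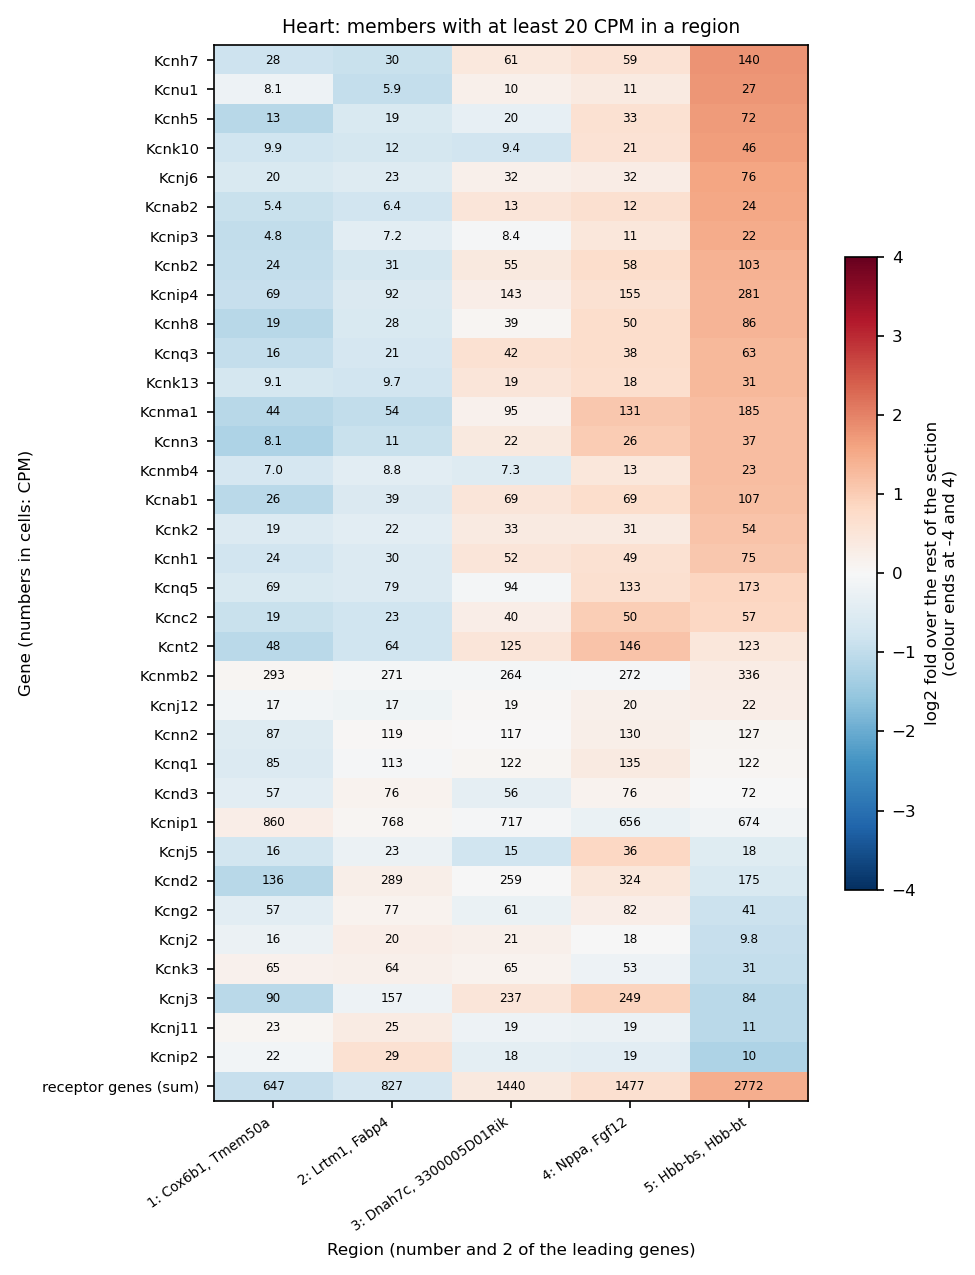
Members with at least 20 CPM in a heart region (35 of the 36 shown as rows, ordered by their fold in region 5) and the sum of receptor genes (last row) across the 5 regions. Colour is the log2 fold of CPM over the rest of the section, and the number in a cell is CPM. The upper rows are higher in region 5, as is the receptor row at 2.72-fold, while Kcnip2, Kcnj11, Kcnj3 and Kcnk3 are lower there.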

How the data were processed

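Counts were deposited per feature and barcode, as 1 table per section. The tool STARsolo and the build mm39 come from the submitters' processing notes. Its version and its treatment of molecular tags, introns and strand are not given in the sources used here; the intervals hold if no molecule was counted more than 1 time. There were 23 rows for parts of the ribosomal DNA unit. GENCODE mouse release 21 (GRCm38), older than the files' build, gave spans, exon lengths, overlaps and coding windows by gene ID; 35551 IDs and all 93 members matched. No protein table was used here, so coding windows replaced protein windows.

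Members and lists were chosen with earlier results of these data known. Named genes were those past the size or region rule, the 6 highest by CPM and per exon kb, family leaders, and lists of 6 or fewer. Intervals were exact Poisson, binomial or conditional binomial. Medians added 0.5 counts. Regions came from scanpy 1.11.5 (2000 variable genes, 20 components, 15 neighbours, Leiden resolution 0.6, seed 0), and thinning used seed 1. Alternatives changed scaling, spot threshold, spot weight, floor, fold, length, resolution and background. Python 3.11.15, numpy 2.4.6, scipy 1.17.1 and pandas 2.3.3 were used. Some members are counted but not reported by name here.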

Additional observations from a re-analysis of the deposited data

Results flagged for a closer look

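Barcodes under the spot threshold entered no comparison and still held potassium channel counts, above the 3 counts that a count of 0 allows. In brain, 912 such barcodes held 1385 member counts of 156957 in all, 0.882% (0.837 to 0.930), from 68 members. In heart, 1266 such barcodes held 562 of 154831, 0.363% (0.334 to 0.394), from 62 members. There were no control samples to set them against.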

How the results depend on the processing

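The number of members higher in brain was 21 to 31 and in heart 5 or 6 over the scaling, spot, weight, background, floor and fold alternatives, against 26 and 5, and no called member turned to the other section. Outside ribosomal, mitochondrial and small structured RNA the share ratio was 2.44 and the median log2 ratio 1.45. With every spot weighing the same they were 3.30 and 1.76, and with the receptor density taken off 4.98 and 3.74. With spots of at least 2000 counts and 500 features the share ratio was 3.76. At a region fold of 3, 16 members passed in brain and 4 in heart. Outside ribosomal, mitochondrial and small structured RNA 48 members passed the region rule in brain and 22 in heart. Of these, 38 and 12 were among the 39 and 19 that passed in the main setting. At Leiden resolution 1.0, 29 passed in heart, and with the receptor density taken off, an alternative chosen after seeing the data, 5. By merged exon length, 10 members in brain and 20 in heart were at or under 2 times the receptor density. At 4 times the density 40 were in brain. The cause of these moves was not tested, beyond fewer genes passing a stricter fold and more a wider density limit. Depth limits the members under 20 CPM, whose ratios rest on as few as 9 counts. No paired analysis was possible because each tissue has 1 library.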

Other observations

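Outside the symbol rule lay 6 features whose symbols begin with Kcn. Kcnq1ot1, the long RNA antisense to Kcnq1 and known for imprinting of its chromosome domain, had 176 CPM in brain and 44.0 in heart, 3.99-fold (3.80 to 4.20), just under the size rule. Outside ribosomal, mitochondrial and small structured RNA its ratio was 2.61. Kcnd3os, which overlaps Kcnd3 on the other strand, had 3.58 and 1.93 CPM. Kcnrg, a soluble regulator of Kv channels, had 0.754 and 0.650 CPM. Kcnab3os, Kcnmb4os1 and Kcnmb4os2 each had under 1 CPM in both sections.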
